A study of Homo sapiens with 27 samples.

Results

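A549R cells, read here as the cisplatin-resistant counterpart of A549, were set against A549 cells at the level of single RNA 3′ ends, both after vehicle (DMSO) and both from cytosolic poly(A)+ RNA. The comparison holds 6 of the 27 libraries of the series, 3 of A549R and 3 of A549, which the labels place among lines of non-small cell lung cancer. A549 is an established line of human lung adenocarcinoma, and both lines were grown in the same serum-supplemented medium. The labels do not say how A549R was derived or whether it is 1 clone, and nothing in them says that the 3 libraries of a line came from separate cultures, so p-values measure only the spread between these libraries. The other libraries used here are 6 of the same lines after cisplatin at 100 µM, again A549R and A549 cytosol, and 6 of A549 heavy polysomes, the mRNA that carries many ribosomes, after cisplatin or DMSO. Peaks of the 6 DMSO cytosol lists that overlapped on a strand were merged into 149603 regions, and the 19491 of them listed in all 6 lists, called measured peaks below, entered the test. Positions are those of the lists, counted from 1 and read as the human build hg19. The files do not pair peaks with genes and no annotation of that build was used, so each peak goes by its position, and marker genes of the lines were not checked.

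A messenger RNA ends where the nascent transcript is cleaved and a poly(A) tail is added, and many genes hold several such sites, some in introns and some in the last exon. Use of an intronic site gives a shorter transcript with another coding end, whereas a choice among sites in the last exon changes the untranslated tail. Cisplatin is a platinum drug that crosslinks DNA, and DNA damage and drug resistance have both been studied for changes in where transcripts end. According to the design text, the series asks how intronic polyadenylation changes relative to the last exon in cisplatin response and resistance.

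The 6 libraries were of unequal depth, and their lists were of unequal kind. The A549R libraries held 7564772, 6999601 and 3024814 counts, against 5186010, 5377638 and 3372128 in the A549 libraries. Each list numbers its peaks and skips some numbers, and the A549R lists kept 76.0% to 77.5% of their numbers, against 33.8% to 34.2% in the A549 lists. Measured peaks held 52.5% to 55.6% of all counts in A549R and 89.2% to 91.5% in A549, so values are CPM over the counts at measured peaks alone, with TMM scaling in the 6 DMSO cytosol libraries. Since every A549R list is long and every A549 cytosol list is short, list kind and line cannot be told apart within these libraries. The A549 polysome lists numbered 1 and 2 are long and those numbered 3 are short, which gives a view of list kind inside A549. In these polysome lists, however, list kind and replicate number cannot be told apart. A peak is said below to differ with the list kind where, in DMSO and cisplatin polysomes alike, both long lists stood at least 2-fold above, or both at least 2-fold below, the short list. Replicate 3 of each line was the shallowest and had the highest share of mitochondrial counts at measured peaks, which was 9.76%, 10.6% and 13.7% in A549R and 11.5%, 10.5% and 16.7% in A549. The means were 11.3% ± 2.08 and 12.9% ± 3.32 (SD, n = 3 each; exact permutation test, two-sided, p = 0.6, where 0.1 is the smallest p that 3 against 3 allow).

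Against A549, 79 measured peaks were higher in A549R and 51 were lower at an adjusted p under 0.05 (edgeR's quasi-likelihood test with Benjamini-Hochberg adjustment). These are 0.405% and 0.262% of the peaks tested, or 0.667% in both directions. The median log2 difference over all measured peaks was -0.0013. The higher peaks differed by 1.87-fold to 66.3-fold with a median of 3.82-fold, and 37 of them by at least 4-fold. The lower peaks differed by 1.90-fold to 21.2-fold with a median of 2.66-fold, and 8 of them by at least 4-fold. In CPM, A549R and A549 did not overlap for any of the 130 peaks, nor for 4068 measured peaks (20.9%), and 3062 had an unadjusted p under 0.05. The 95% interval of a single log2 difference, without adjustment, reached a median of 0.65 to either side. Of the measured peaks, 555 were at least 2-fold higher and 464 at least 2-fold lower, against 120 of the called peaks. Most differences of that size thus did not pass the adjusted test.

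The number of calls moved with the libraries and the model. It was 27 without A549R replicate 1, 32 without replicate 2 and 277 without replicate 3, and 22, 23 and 811 without A549 replicates 1, 2 and 3. With the replicate number as a block it was 350, 169 higher and 181 lower, among them 129 of the 130 peaks. In all 6 fits that left out 1 library, 14 of the higher and 2 of the lower peaks still passed.

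**Figure D1:**
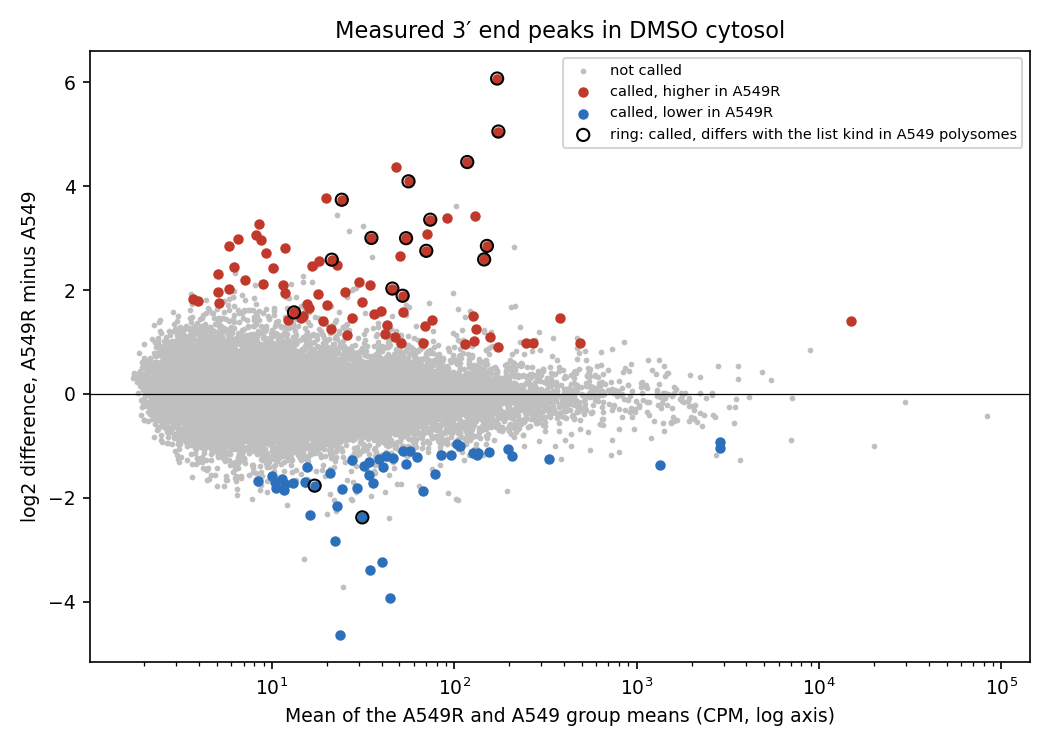
Each point is 1 of the 19491 measured peaks, by the mean of both group means in CPM (log axis) and by its log2 difference, A549R minus A549. Red points passed the test and were higher in A549R (79), blue points passed and were lower (51), and black rings mark the 17 of these that differed with the list kind in A549 polysomes. Of the 5 highest points, 4 are ringed.

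Of the 15 named peaks with the highest log2 difference, 8 also differed with the list kind inside A549, 7 of them higher and 1 lower in long lists. The first was chr11:2966137-2966296 on the plus strand, with 276, 342 and 397 CPM in the A549R libraries, against 4.21, 4.54 and 6.56 CPM in the A549 libraries. Its log2 difference was 6.07 ± 0.26 (SE; adjusted p = 4.62e-06, edgeR), with no overlap between lines. In A549 DMSO polysomes the same peak had 731 and 217 CPM in the long lists and was not listed in the short one. Inside A549 the long lists thus held this end at levels near those of A549R, and the short lists did not.

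The peak chr12:68946686-68947134 on the minus strand had 325, 323 and 369 CPM in A549R, against 12.6, 9.70 and 7.94 CPM in A549. It differed by 5.05 ± 0.23 on the log2 scale (adjusted p = 4.62e-06, edgeR). The A549 polysome lists gave it 172 and 139.8 CPM where long and 3.86 CPM where short. At chr8:62491483-62492516 on the plus strand the A549R libraries had 267, 212 and 198 CPM, against 15.7, 11.2 and 2.76 CPM in A549, a log2 difference of 4.46 ± 0.44 (adjusted p = 0.00166, edgeR). This end was higher still in the long A549 polysome lists, at 2094 and 2343 CPM, and stood at 2.38 CPM in the short one. At each of these 3 peaks the long A549 polysome lists lay far above every short A549 list.

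Of the 79 higher peaks, 12 were higher in long lists in this sense, with log2 differences of 1.57 to 6.07, and 3 were lower in long lists. Of the 51 lower peaks, 2 were higher in long lists and 0 were lower. Among all measured peaks, 312 were higher and 306 lower in long lists. Besides the peaks given, those at chr12:104425445-104426288 plus (log2 difference 4.09), chr22:31955644-31955984 plus (3.74), chr16:28616867-28617250 minus (3.35) and chr3:116364597-116365570 minus (3.00) were among the 15 named higher peaks. In this order, the long A549 DMSO polysome lists gave them 199 and 197, 11.9 and 16.7, 21.6 and 18.8, and 94.9 and 92.3 CPM. Their A549R means were 106, 45.1, 135 and 96.8 CPM. At the chromosome 22 and 16 peaks the long lists thus stayed below every A549R library. All 7 that were higher in long lists still passed without any 1 library. The polysome lists come from another fraction and from other libraries, and the part of list kind in the line difference was not tested. With all such peaks left out of the fit, 219 peaks passed, 110 higher and 109 lower.

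Other peaks stood high in A549R and were low in the DMSO libraries of A549, in long and short lists alike. At chr14:80667934-80668493 on the minus strand the A549R libraries had 84.3, 128 and 61.7 CPM, against 3.32, 1.65 and 9.32 CPM in the A549 libraries. The A549 DMSO polysome libraries had at most 3.27 CPM, in the short list. The log2 difference was 4.38 ± 0.51 (adjusted p = 0.00528, edgeR), and it passed in 5 of the 6 fits without 1 library. A549R thus had an end here that A549 nearly lacked in cytosol and polysomes.

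The peak chr22:18187401-18187891 on the plus strand had 43.4, 39.9 and 27.7 CPM in A549R, against 3.32, 2.06 and 2.76 CPM in A549, and differed by 3.78 ± 0.30 (log2, adjusted p = 0.000309, edgeR). In A549 polysomes after cisplatin it had 20.7 CPM in 1 long list and 1.25 CPM in the short one, and the other long list did not hold it. At chr22:50964124-50964345 on the minus strand, A549R had 113, 147 and 119 CPM and A549 had 12.4, 15.5 and 17.3 CPM, a log2 difference of 3.07 ± 0.22 (adjusted p = 0.000162, edgeR). All A549R libraries were above all A549 libraries at both peaks, each in all 6 fits without 1 library. At chr9:132500610-132500903 on the minus strand the A549R libraries ranged more widely, with 266, 135 and 101 CPM against 17.7, 8.26 and 23.1 CPM in A549 (log2 difference 3.38 ± 0.44, adjusted p = 0.0102, edgeR). Its A549 polysome values were 11.6, 9.62 and 21.4 CPM.

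A minority of the named higher peaks rested on fewer libraries or on low counts. At chr12:50570647-50570933 on the minus strand the A549R values were 10.7, 28.9 and 6.29 CPM and the A549 values 1.33, 1.86 and 1.73 CPM. The log2 difference of 3.28 ± 0.56 (adjusted p = 0.0354, edgeR) passed in 2 of the 6 fits without 1 library. The peak chr11:66839326-66839495 on the plus strand was steady in A549R, at 59.9, 63.4 and 62.9 CPM, and uneven in A549, at 3.32, 4.13 and 17.3 CPM. It too passed in 2 of 6 such fits (log2 difference 3.00 ± 0.50, adjusted p = 0.0319, edgeR), and in A549 polysomes it was lower in the long lists. Another of low counts, chr20:43995890-43996355 on the plus strand, had 17.6, 12.8 and 13.2 CPM in A549R and 1.11, 1.65 and 2.76 CPM in A549 (log2 difference 3.05 ± 0.35, adjusted p = 0.00528, edgeR).

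The 15 named lower peaks in A549R were ends that A549 also had in polysomes, where each was listed in all 3 DMSO libraries at 7.10 CPM or more. The lowest was chr22:24584885-24585081 on the plus strand, with 1.37, 1.23 and 3.78 CPM in A549R, against 41.6, 25.8 and 67.7 CPM in A549. Its log2 difference was -4.63 ± 0.49 (adjusted p = 0.00297, edgeR). A549 DMSO polysomes had 126, 129 and 138 CPM, in long and short lists alike. This end was near the lowest listed count, 5, in A549R and stood well above it in all 6 of these A549 libraries.

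At chr5:82876944-82877299 on the plus strand the A549R libraries had 5.94, 6.16 and 5.66 CPM, against 69.3, 69.8 and 49.0 CPM in A549, a log2 difference of -3.39 ± 0.25 (adjusted p = 0.000162, edgeR). Both of these peaks passed in all 6 fits without 1 library, and they are the only lower peaks to do so. At chr19:49102398-49102686 on the plus strand A549R had 5.26, 2.47 and 10.7 CPM and A549 had 97.0, 98.5 and 52.8 CPM (log2 difference -3.93 ± 0.44, adjusted p = 0.00457, edgeR). The 3 peaks were 10.6-fold to 21.2-fold higher in A549 than in A549R.

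Of the other named lower peaks, those at chr19:45324512-45324684 plus, chr15:85198351-85198614 minus, chr16:29917109-29917381 plus and chr13:73651422-73651724 plus differed by -3.23, -2.83, -2.32 and -2.16 on the log2 scale. The remaining named peaks had log2 differences of -2.38 to -1.72, and the peaks at chr6:151669912-151670554 plus and chr15:26789702-26790191 minus were higher in long lists. Among the 15, 10 passed in 2 or fewer of the 6 fits without 1 library, against 2 of the 15 named higher peaks.

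**Figure D2:**
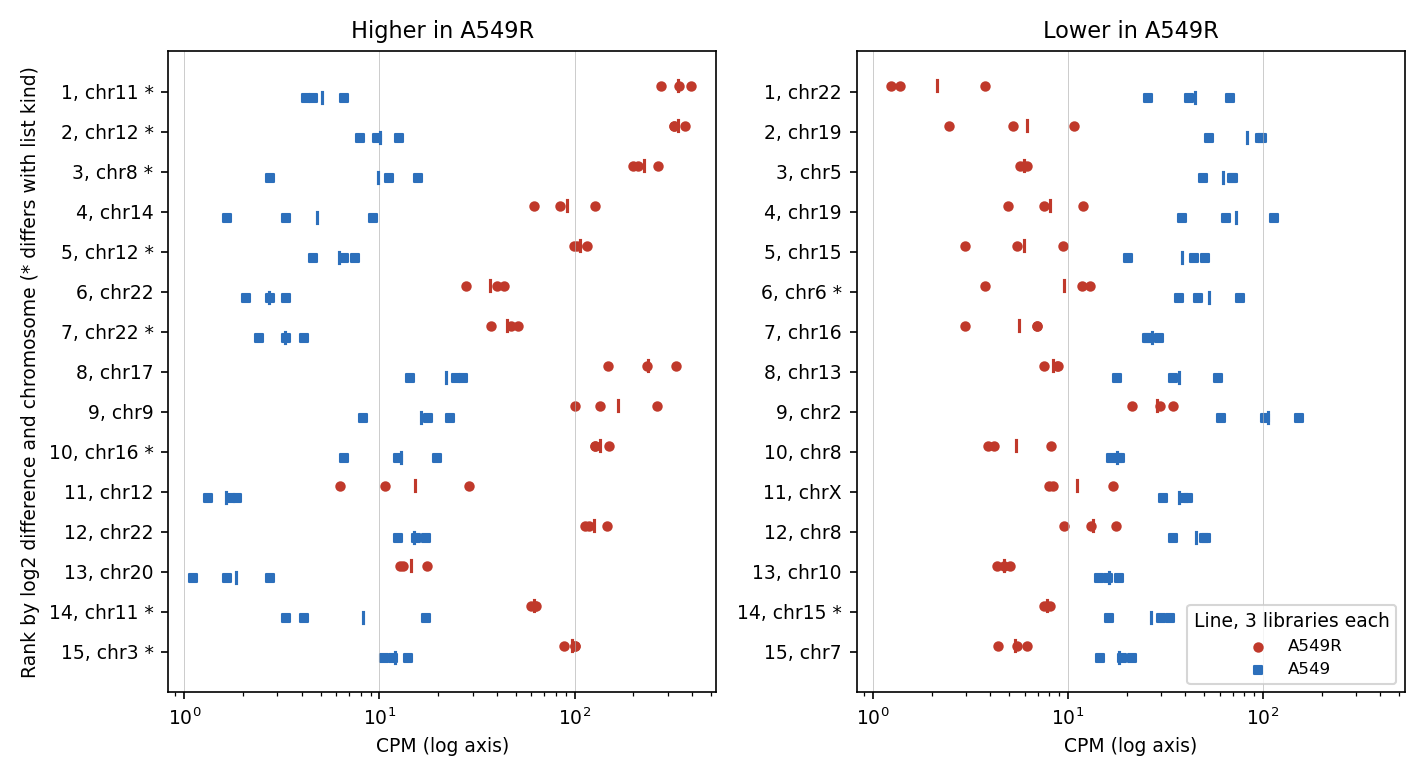
The 15 named peaks in each direction, ranked by the size of the log2 difference, each with its 3 A549R values (red circles) above its 3 A549 values (blue squares) in CPM on a log axis; short bars are group means. Asterisks mark peaks that differed with the list kind in A549 polysomes. The naming rule took peaks at which the lines do not overlap; the spread within a line differs from peak to peak.

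The abundant ends that differed did so by smaller factors. The most abundant peak to pass the test, chr12:52679680-52680281 on the minus strand, had 20040, 18410 and 26880 CPM in A549R, against 7147, 7585 and 9889 CPM in A549. It was 2.65-fold higher in A549R (log2 difference 1.41 ± 0.19, adjusted p = 0.0146, edgeR), and the shallowest library of each line, replicate 3, was the highest of its line. It passed in 3 of the 6 fits without 1 library. The other abundant higher peaks, at chr22:39918065-39918695 plus, chr12:106631583-106632197 minus and chr22:42059624-42060107 plus, averaged 648, 357 and 329.9 CPM in A549R, against 329, 181 and 168 CPM in A549.

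Among abundant lower peaks, chr9:75515457-75516243 on the minus strand had 2052, 1737 and 2168 CPM in A549R, against 4301, 3827 and 3178 CPM in A549 (log2 difference -0.92 ± 0.17, adjusted p = 0.0411, edgeR). At chr9:75784959-75785324 on the plus strand the A549R libraries had 613, 603.8 and 1022 CPM and the A549 libraries 2315, 2083 and 1398 CPM (log2 difference -1.37 ± 0.25, adjusted p = 0.0428, edgeR). The lines did not overlap at either peak, and replicate 3 of each line lay nearest to the other line. The peak chr17:22023935-22024045 on the plus strand averaged 1876 ± 454 CPM in A549R and 3839 ± 414 CPM in A549 (SD, n = 3 each). The 2 others, at chr5:93905058-93905345 plus and chr5:105889137-105889230 minus, were 2.38-fold and 2.28-fold lower in A549R. Each of these 5 passed in 2 of the 6 fits without 1 library.

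Called narrow peaks were each set against an abundant called peak of the same direction, and some kept a nearly constant ratio to it. Peaks called in the same direction with similar log2 differences have similar ratios between lines by selection. Wider peaks were not compared in this way, so the ratio is not shown to be particular to narrow peaks. Of 534 measured peaks narrower than 50 bases, 3 were called higher and 5 lower, and their median log2 difference was 0.05. The 26-base peak chr14:42845639-42845664 on the plus strand, the third most abundant of the higher peaks, averaged 555 ± 184 CPM in A549R and 201 ± 46.3 CPM in A549 (SD, n = 3 each). It stood at 2.28% to 2.84% of the abundant chromosome 12 peak in all 6 libraries. The other narrow higher peaks, chr1:104606009-104606032 plus and chr4:37728218-37728244 plus, stood at 0.468% to 0.541% and 0.199% to 0.276% of it. Of the narrow lower peaks, chr10:37890355-37890394 minus, chr20:55933481-55933522 minus and chr22:35337848-35337874 minus kept to 3.78% to 4.97%, 3.91% to 4.91% and 1.19% to 1.47% of the chromosome 17 peak. How reads were placed among near-identical sequences was not tested, and these 6 peaks are reported as uncertain. Placement was not tested either for the chromosome 12 and 17 peaks they were set against, or for chr5:93905058 plus and chr5:105889137 minus. In A549 DMSO polysomes the chromosome 17 peak and the 2 chromosome 5 peaks had at most 699, 124 and 85.2 CPM. Their A549 cytosol means were 3839, 465 and 287 CPM. The other narrow lower peaks varied more widely against the chromosome 17 peak, by 0.159% to 0.473% at chr1:104696446-104696493 plus and 0.211% to 0.493% at chr3:50671321-50671342 minus.

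At 9 places, called peaks on a strand lay within 50 kb of each other and moved the same way. On the minus strand of chromosome 12 around the abundant peak, 3 of 5 measured peaks were called, and all 5 had log2 differences of 1.41 to 1.92. The other 2 passed with the replicate block (adjusted p = 0.0172 and 0.0451, edgeR). On the minus strand of chromosome 17, the peak chr17:38632037-38632421 had 148, 234.5 and 329.7 CPM in A549R, against 14.4, 24.8 and 26.9 CPM in A549 (log2 difference 3.43 ± 0.34, adjusted p = 0.00166, edgeR). Its neighbours chr17:38633325-38633726 and chr17:38652230-38652444 also rose, by 2.71 and 2.82 on the log2 scale. The last measured peak of the stretch, chr17:38629158-38629448, had a log2 difference of 2.10. It passed with the replicate block and not in the main test (adjusted p = 0.0321 with the block and 0.079 without it, edgeR). At all 4 ends, every A549R library lay above every A549 library.

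On the plus strand of chromosome 3, chr3:118922769-118923367 had 102, 83.6 and 73.6 CPM in A549R and 9.30, 12.8 and 20.02 CPM in A549, and its neighbour chr3:118923589-118924093 averaged 31.0 and 5.37 CPM. They were higher in A549R by 2.65 and 2.55 on the log2 scale (adjusted p = 0.00343 and 0.00642, edgeR), and the lines did not overlap. Both measured peaks passed at chr12:105151589-105151939 plus with chr12:105153839-105154077 plus, at chr16:54317214-54317360 minus with chr16:54317411-54317726 minus, and at a pair on the plus strand of chromosome Y near position 15029974. On the plus strand of chromosome 22, 2 of 7 measured peaks passed, by 0.97 and 0.98, and the other 5 had log2 differences of 0.57 to 1.44, of which chr22:42046719-42046837 passed with the replicate block (adjusted p = 0.0333 with it and 0.0593 without it, edgeR).

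The stretches that fell were on chromosomes 9 and 13. On the minus strand of chromosome 9, upstream of and including the abundant peak at 75515457, 3 of 9 measured peaks fell, and the other 6 had log2 differences of -1.59 to -0.58. Of these, chr9:75520677-75520955 and chr9:75541891-75542098 passed with the replicate block (adjusted p = 0.0312 and 0.0416, edgeR). On the plus strand of chromosome 13, chr13:21721323-21721851 had 25.4, 25.6 and 32.1 CPM in A549R, against 63.3, 68.9 and 60.1 CPM in A549, and chr13:21751067-21751813 averaged 72.2 and 144 CPM. These fell by 1.23 and 1.00 on the log2 scale (adjusted p = 0.0275 and 0.0354, edgeR). The other 3 measured peaks of that stretch had log2 differences of -1.04 to -0.42. Neighbouring ends can belong to 1 transcript unit and are not independent of each other.

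To set ends against each other within a stretch, each measured peak was paired with a stronger one lying up to 50 kb further along the same strand, and the ratio of the pair was tested with library terms. Such an upstream pair stands in for the intronic site against the last exon, though both peaks need not belong to 1 gene. No annotation told intronic sites from last exons, and the pairs that passed the test were 53 to 46749 bases apart. Of 7429 pairs, 15 (0.202%) shifted at an adjusted p under 0.05 (edgeR's quasi-likelihood test), 8 towards the upstream end in A549R and 7 away from it, and 537 had an unadjusted p under 0.05. The median log2 shift over all pairs was -0.02. Among 6057 pairs with the stronger peak upstream, 22 shifted (0.363%), 10 towards the weaker, downstream end and 12 away from it. In neither kind of pair did the shifts run mainly one way.

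The count of shifted upstream pairs was 7, 5 and 31 without A549R replicates 1, 2 and 3, and 4, 5 and 49 without A549 replicates 1, 2 and 3. With the replicate block it was 29, with 19 towards the upstream end, and with neighbours sought within 20 kb it was 8.

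The widest shift towards the upstream end was at chr22:24574380-24574661 on the plus strand, 10223 bases upstream of the peak lowest in A549R. It made up 88.0%, 88.9% and 75.0% of the pair in A549R, against 14.9%, 22.4% and 14.04% in A549, a log2 shift of 4.84 ± 0.43 (adjusted p = 9.37e-05, edgeR). The upstream peak itself had a log2 difference of 0.28 (adjusted p = 0.663, edgeR), while its downstream partner fell. The A549R signal of the pair was thus mostly at the upstream end, and that of A549 mostly at the downstream end.

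In 4 other pairs the shift followed the upstream peak. At chr20:43995890-43996355 plus, with 61 bases between the peaks, the upstream share was 48.7%, 49.1% and 42.9% in A549R and 7.58%, 9.64% and 11.4% in A549 (log2 shift 3.07 ± 0.35, adjusted p = 0.0011, edgeR). In A549 DMSO polysomes this share was 40% and 41.67% in the long lists, and the short list did not hold the upstream peak. In A549 polysomes after cisplatin the share was 34.85%, 39.29% and 42.24%, so a high upstream share was not particular to A549R. At chrX:48378921-48379200 plus the upstream share was 7.96%, 17.4% and 15.7% in A549R and 2.167%, 2.76% and 3.35% in A549 (log2 shift 2.42 ± 0.37, adjusted p = 0.0125, edgeR). The downstream partners of both pairs had log2 differences of -0.02 and 0.01. The upstream peaks at chr12:50570647 and chr17:80059328, both on the minus strand, averaged 48.6% and 35.9% of their pairs in A549R, against 9.51% and 14.3% in A549.

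At chr22:50964124-50964345 minus, the upstream share was 45.7% ± 7.16 in A549R and 17.5% ± 2.37 in A549 (SD, n = 3 each), and the upstream peak rose. Its partner, with a log2 difference of 1.04, passed with the replicate block and not in the main test (adjusted p = 0.0275 with the block and 0.09 without it, edgeR). The upstream peaks chr2:27293265-27293495 plus and chr2:85102079-85102262 plus reached 43.0% ± 4.19 and 37.9% ± 2.61 of their pairs in A549R, against 16.6% ± 3.77 and 18.2% ± 1.72 in A549. In both, the downstream partner fell, by 1.55 and 1.12 on the log2 scale, and the upstream peak did not pass its own test. In A549 DMSO polysomes the upstream share was 11.96%, 14.95% and 23.65% for the first of these pairs. For the second it was 35.3%, 31.9% and 46.1%, near the A549R cytosol shares.

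Of the 7 shifts away from the upstream end, 3 had a partner that was higher in long lists: those of chr11:2946237-2946492, chr12:104382304-104382652 and chr1:96912902-96913022, all on the plus strand. Their upstream peaks made up 22.02%, 11.3% and 5.56% in A549R, against 95.2%, 69.0% and 49.7% in A549. In A549 DMSO polysomes the upstream share of the chromosome 12 pair was 9.80% and 9.29% in the long lists and 59.6% in the short list. The other 4 were free of such peaks. At chr15:85198351-85198614 minus the upstream share was 24%, 11.9% and 26.3% in A549R, against 67.4%, 66.7% and 46.1% in A549 (log2 shift -2.67 ± 0.42, adjusted p = 0.0155, edgeR), and the upstream peak fell. At chr16:30959876-30960106 plus, chr19:18280915-18281350 plus and chr6:32808489-32808670 minus it averaged 28.6%, 17.7% and 23.2% in A549R, against 61.4%, 43.9% and 48.4% in A549. In these 3 pairs neither peak passed its own test. With the replicate block the partner of the chromosome 19 pair did (adjusted p = 0.0357 with it and 0.0807 without it, edgeR). In A549 DMSO polysomes the upstream share of the chromosome 19 pair was 27.1% and 27.9% in the long lists and 48.7% in the short list. After cisplatin the A549 polysome shares of this pair were 11.7% and 18.3% in the long lists and 17.1% in the short list. The chromosome 6 pair had upstream shares of 33.0%, 24.4% and 32.7% in A549 DMSO polysomes, nearer to A549R cytosol than to A549 cytosol. The chromosome 16 pair had 60.45%, 65.3% and 60.34% there, near A549 cytosol.

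**Figure D3:**
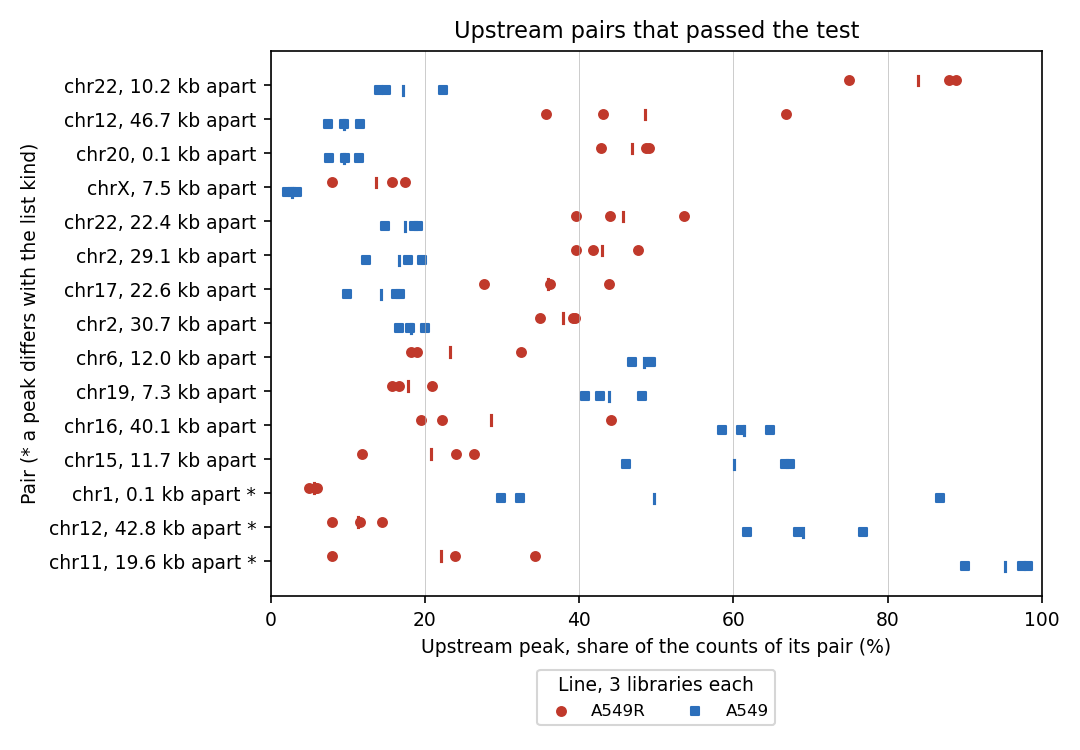
The share of the upstream peak in the counts of its pair (%), for the 15 upstream pairs that passed the test, with 3 A549R libraries (red circles) above 3 A549 libraries (blue squares) in each row and short bars for the means. The upper 8 pairs have a higher upstream share in A549R and the lower 7 a lower one; asterisks mark 3 pairs with a peak that differs with the list kind.

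Ends that 1 line does not list fall outside the test, since a missing entry is not a count of 0 here; the following peaks were picked after their values were seen and are described without a test. All 6 A549R cytosol lists, cisplatin included, held 24816 merged peaks that none of the 6 A549 cytosol lists held. Of these, 21585 stood in all 4 long A549 polysome lists, so that most of that difference coincided with list kind. Another 660 stood in none of the 12 A549 lists, and 48 of them were at least 100 bases wide. The peak chr10:79395953-79396161 on the minus strand led these, with raw counts of 272, 367 and 148 in the A549R DMSO libraries. It was followed by chr20:35806950-35807135 minus with 154, 189 and 58 counts and chr3:114619970-114620129 plus with 147, 133 and 63 counts. Among the 10 strongest, chr14:80665234-80665704, chr14:80666303-80666968 and chr14:80668701-80669337, all on the minus strand, flank the higher peak at chr14:80667934. That peak thus has 3 neighbours that no A549 list holds.

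In the other direction, 598 merged peaks stood in all 6 A549 cytosol lists and in no A549R list, though the A549R lists are the longer ones. Of these, 524 were also missing from all 4 long A549 polysome lists, and 35 stood in all 4. The strongest of the 35 was chr4:155491570-155492359 on the plus strand, unlisted in A549R and with raw counts of 342, 272 and 51 in the A549 DMSO cytosol libraries. Its neighbours chr4:155486952-155487146 and chr4:155487657-155487831 had 306, 185 and 32 counts and 114, 43 and 8 counts in A549. Next came chr13:52541105-52541406 plus with 134, 193 and 97 counts, chr18:71016570-71017122 plus with 165, 152 and 27 counts, and chr5:10279387-10279805 minus with 127, 146 and 36 counts in A549. On chromosome X, 3 such ends lay between positions 151743140 and 151934872, with up to 131 counts in an A549 DMSO cytosol library. The ends chr5:82834929-82835590 plus and chr5:82877931-82878123 plus lie beside chr5:82876944, which fell by 3.39 on the log2 scale in A549R.

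Along the genome the line difference was uneven. Chromosome 22 had the highest median log2 difference of any nuclear chromosome, 0.44 over 432 measured peaks, with 84.0% of them above 0 against 49.8% of all measured peaks. It held 11 of the 79 higher peaks and 2 of the 51 lower peaks. Chromosomes 6 and 9 had medians of 0.32 and 0.27, and chromosome Y, with 42 measured peaks, 0.27. Chromosomes 15, 19 and 7 had the lowest medians, -0.25, -0.20 and -0.19. No test was made over chromosomes, whose peaks are not independent.

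Of 511 windows of 5 Mb with at least 10 measured peaks, 55 had a median log2 difference above 0.3 and 43 one below -0.3. The lowest median was -0.93, between 20 and 25 Mb of chromosome 13, where 2 of 23 measured peaks were called lower. The next was -0.87, between 75 and 80 Mb of chromosome 9, where 4 of 23 were called lower, although the chromosome as a whole had a median above 0. Between 75 and 80 Mb of chromosome 13 the median was -0.72. The highest window median was 0.63, between 145 and 150 Mb of chromosome 6, with 88.2% of its 17 peaks above 0.

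**Figure D4:**
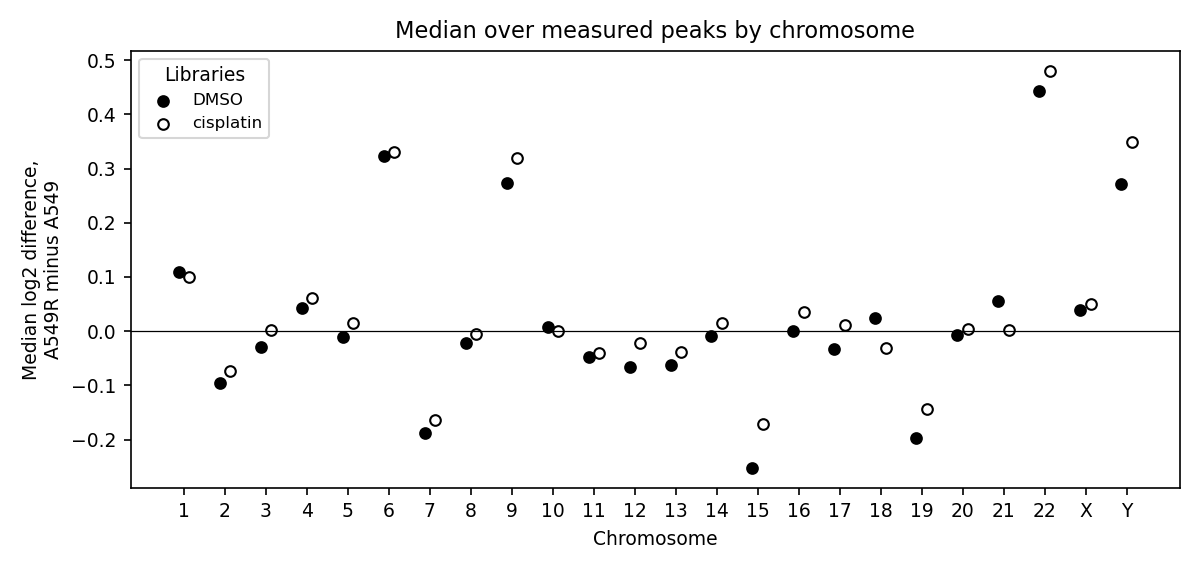
Median log2 difference, A549R minus A549, over measured peaks by chromosome, in the DMSO libraries (filled circles) and over peaks listed in all 12 cytosol libraries in the cisplatin libraries (open circles). Chromosomes 22, 6, 9 and Y lie highest in both sets, and 15, 19 and 7 lowest.

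The 6 cytosol libraries of the same lines after cisplatin share no library with the DMSO comparison, and they hold the same list kinds by line. Of the 130 peaks, 116 were listed in all 12 cytosol libraries, and all 116 had the same direction under cisplatin, as did 70% of all 16951 peaks listed in all 12. In the cisplatin libraries 82 of 16951 peaks were called (0.484%), 44 higher and 38 lower, and these included 45 of the 116, 29 higher and 16 lower in A549R. The difference was smaller under cisplatin for 89 of the 116, which were selected on their DMSO values.

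Of the named peaks listed in all 12 libraries, 10 of 13 higher and 6 of 15 lower ones were also called under cisplatin. The minus-strand peak at chr14:80667934 had a log2 difference of 5.23 ± 0.32 under cisplatin (adjusted p = 2.93e-05, edgeR), and that at chr22:24584885 had -3.33 ± 0.39 (adjusted p = 0.00392, edgeR). The chromosome 12 abundant peak differed by 1.40 ± 0.18 there, against 1.41 ± 0.19 in DMSO. Among the peaks not called under cisplatin were chr19:49102398 plus, second among the lower peaks, at -2.53 ± 0.60 (adjusted p = 0.107, edgeR), chr22:18187401 plus at 1.92 ± 0.61 (adjusted p = 0.216, edgeR) and chr3:116364597 minus at 0.93 ± 0.54 (adjusted p = 0.522, edgeR). A test of the difference between treatments called 0 of 16951 peaks (edgeR, interaction of line and treatment), with 331 at an unadjusted p under 0.05.

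For the upstream pairs, both peaks of 12 of the 15 pairs were listed in all cisplatin cytosol libraries, and in 10 of these the shares again did not overlap between lines, in the same direction. The same held for 8.63% of the 6072 upstream pairs listed in all 12 libraries. At chr22:24574380 the upstream share was 75.6%, 64.7% and 65.2% in A549R after cisplatin, against 14.3%, 19.1% and 15.8% in A549 after cisplatin. The pairs of chrX:48378921 and chr6:32808489 overlapped. The medians by chromosome under cisplatin were 0.48 for chromosome 22, 0.33 for 6, 0.32 for 9 and -0.17 for 15, and the median of the chromosome 13 window between 20 and 25 Mb was -1.02.

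**Figure D5:**
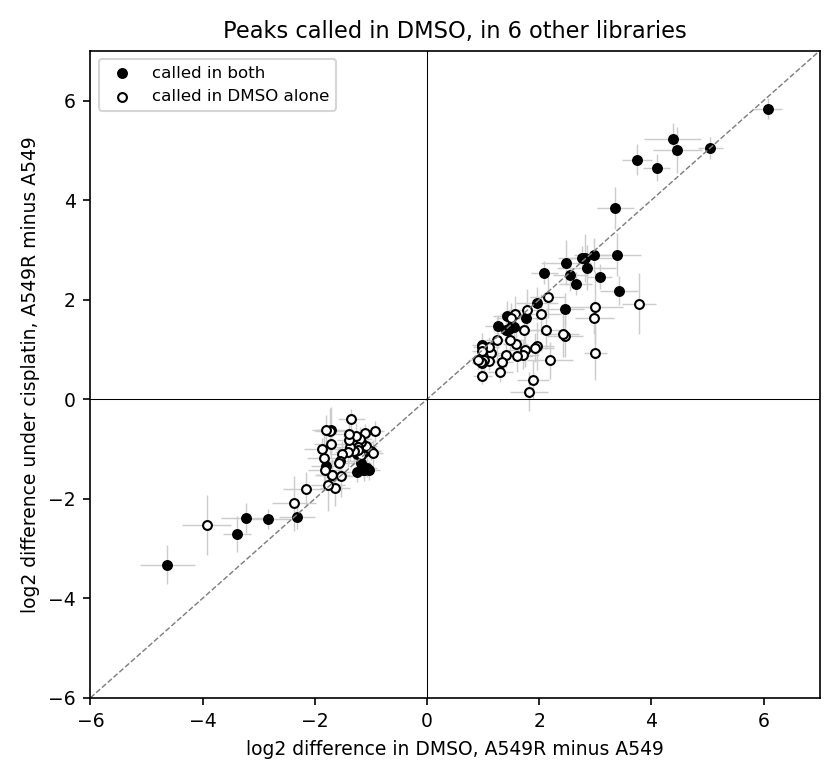
Log2 difference, A549R minus A549, of the 116 peaks called in DMSO and listed in all 12 cytosol libraries, in DMSO (x axis) and in the cisplatin libraries (y axis), with SE bars and the line of equal values dashed. Filled points were called in both sets (45) and open points in DMSO alone; every point lies in a quadrant of equal sign.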

How the data were processed

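Per the labels' protocols, fragmented poly(A)+ RNA was primed with anchored oligo-dT, amplified by 16 PCR cycles, selected for 150 to 300 bases and sequenced as single reads of 50 bases. Tools listed in the submitters' processing notes are bedtools 2.17.0, Bowtie2 2.2.5 and SAMtools 1.1. The authors deposited 1 peak list per library with a raw read count per peak, of at least 5 counts. In the sources used here, no rule for calling or filtering peaks is given. A mouse build, mm9, stands in the processing notes, yet positions reach 249237867 on chromosome 1 and 51239739 on chromosome 22 and were read as human hg19.

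Overlapping peaks were merged per strand and the counts of a library summed. Measured peaks and pairs were tested with edgeR 4.0.16 (glmQLFit, TMM, Benjamini-Hochberg over all features, threshold 0.05), in R 4.3.3. Values of cisplatin and polysome libraries are CPM over measured peaks without TMM. The pair test stands in for intronic ends against last exons, which, like gene lists and marker genes, needed an annotation of the build and was not made. Named are the 15 non-overlapping peaks of largest difference in each direction, of at least 5 CPM, at most 1 per 50 kb, and the 5 most abundant called in each direction. Called upstream pairs are all given, and called pairs with the stronger peak upstream are only counted. Same-numbered libraries of both lines deviated together (correlations of 0.2, 0.115 and 0.211), and the labels do not say what they share. The main tests were unpaired and left this out, and the replicate block that takes it in is given as an alternative. Alternatives were DESeq2 1.42.0, its size factors, a replicate block, a mean count of 20, single peaks, peaks of at most 1000 bases, no listing filter, 20 kb pairs and leaving out each library. Scripts were tested on simulated data. The comparison, lists and rules were chosen with earlier results of these data known. Depths cover counting error only, since PCR reads carry no molecular identifiers. Libraries of the third line were not used.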

Additional observations from a re-analysis of the deposited data

How the results depend on the processing

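Of the 130 calls at measured peaks, the count was 131 with DESeq2's size factors, 118 with a mean count of at least 20, 97 with 1 peak per library and 148 with peaks of at most 1000 bases. It was 350 with the replicate block, 451 with DESeq2 (220 higher, 231 lower) and 25460 of 60017 without the listing filter (23854 higher, 1606 lower), where a missing entry is set to 0. Leaving out 1 library gave 22 to 811 calls, and the 2 highest counts came without replicate 3 of A549R (277) and of A549 (811). Of 2 alternatives chosen after seeing the data, leaving out peaks that differ with the list kind gave 219 and a fit of all 12 cytosol libraries gave 264. The 15 shifted upstream pairs became 29 with the replicate block, 8 within 20 kb, 13 to 19 with DESeq2's size factors, the count minimum or single peaks, 14 without pairs holding a peak that differs with the list kind (chosen after seeing the data), and 4 to 49 without 1 library. The difference in mitochondrial share, -1.53 percentage points, was -5.46 over all counts (exact permutation p = 0.1), -2.73 to -0.74 without any 1 library except A549 replicate 3, and 0.36 without that one. Of the 40 named peaks, all 40 kept direction and call with DESeq2, its size factors, the block and no listing filter. With a mean count of at least 20, 4 fell short of the threshold, and 2 did with the fit of all 12 cytosol libraries. Without A549 replicates 1 and 2, 26 and 24 fell short. Without A549R replicates 1, 2 and 3, 25, 22 and 2 did. The replicate block changed no call of a named peak, and some neighbours or pair partners that passed with it but not in the main test are given above. The cause of these moves was not tested.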
